A study of Mus musculus with 6 samples.

Results

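The Snail, Zeb and Twist genes encode transcription factors that bind E-box DNA and switch off epithelial genes, E-cadherin among them, during epithelial-mesenchymal transition (EMT). The Snail family (Snai1, Snai2, also called Slug, and Snai3) and the Zeb family (Zeb1, Zeb2) are zinc finger repressors, and the Twist proteins (Twist1, Twist2) are basic helix-loop-helix factors that bind DNA as dimers with E proteins. In lung carcinoma cells these factors are known for loosening cell junctions and raising vimentin and matrix genes. The members were found by annotation: all probe sets assigned to exactly 1 of the 7 genes were taken, which gave 16 of the 34945 probe sets that carry a single gene, for 7 of 18194 genes. Snai1, Twist1 and Twist2 had 1 probe set each, Snai2 and Snai3 had 2, Zeb1 had 4 and Zeb2 had 5.

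The cells were 393P, a line of tumour cells from a primary lung tumour of a mouse with the alleles p53R172H∆g/+ and K-rasLA1/+, which both groups carry. The groups were 393P-shZ, with an MKK4 shRNA vector (3 arrays), and 393P-scr, with a scrambled control vector (3 arrays). MKK4, the product of Map2k4, is a kinase that activates JNK and p38. Arrays of a group are replicate cultures of 1 transduced or transfected population (the labels give both routes), and p-values cover no more than the spread among these cultures, while the number of arrays limits the precision. Levels below are the deposited intensities in arbitrary units. Background was the highest of the TrpnX control probe sets, which match a bacterial transcript, on the same array (37.95 to 39.47 units on MKK4 shRNA arrays, 26.45 to 36.72 units on control vector arrays).

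The knockdown was visible on both Map2k4 probe sets. The brighter one averaged 274 ± 29.7 units in MKK4 shRNA cells and 645 ± 51.8 units in control vector cells (SD, n = 3 each), and fell by 1.21 on the log2 scale (limma adjusted p = 0.000386). All 8 epithelial markers, such as Cdh1, Epcam and Krt18, were above background on every array. The test called 3 of the 8 lower and 1 higher, where 5.39% of all genes were called lower and 6.36% higher. Their median log2 change was 0.03. The summed level of the 8 ran from 55607 to 56840 units on MKK4 shRNA arrays and from 55768 to 56493 units on control vector arrays. All but Krt7 are also in the list of epithelial targets below, so these counts are not separate results. Of 10 fibroblast markers none passed the test, 5 were above background on every array (Col1a1, Col1a2, Col3a1, Pdgfra and Lum) and 3 on none (Dcn, Pdgfrb and Fap). Col1a2 averaged 188 units in MKK4 shRNA cells and 205 units in control vector cells, and was lower without overlap (log2 change -0.12, limma adjusted p = 0.313). Lum was higher without overlap (log2 change 0.37, limma adjusted p = 0.0864). Of all probe sets 23.1% had groups that did not overlap. The summed level of the 10 ran from 524 to 646 units on MKK4 shRNA arrays and from 554 to 611 units on control vector arrays. None of 9 leukocyte and 10 endothelial markers passed. In each of these lists 5 were above background on every array. Among them, Csf1r averaged 725 units in MKK4 shRNA cells and 771 units in control vector cells, and Kdr 345 and 394 units. In RNA from whole cultures, more cells with a transcript and more of it per cell cannot be told apart.

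Snai2 rose on both of its probe sets, Zeb2 rose on a part of its probe sets, and no probe set of Snai1, Zeb1, Twist1 or Twist2 passed the test. Of the 16 probe sets 10 were above background on all 6 arrays, 4 on no array and 2 on some. Limma with Benjamini-Hochberg adjustment over 45037 probe sets called 4 of the 16 higher and 1 lower at an adjusted p of 0.05. Of all probe sets 6.37% were called, 3.57% higher and 2.79% lower. The groups did not overlap in 6 of the 16, against 23.1% of all probe sets. The plot of intensities by array shows where each probe set stood relative to background.

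**Figure D1:**
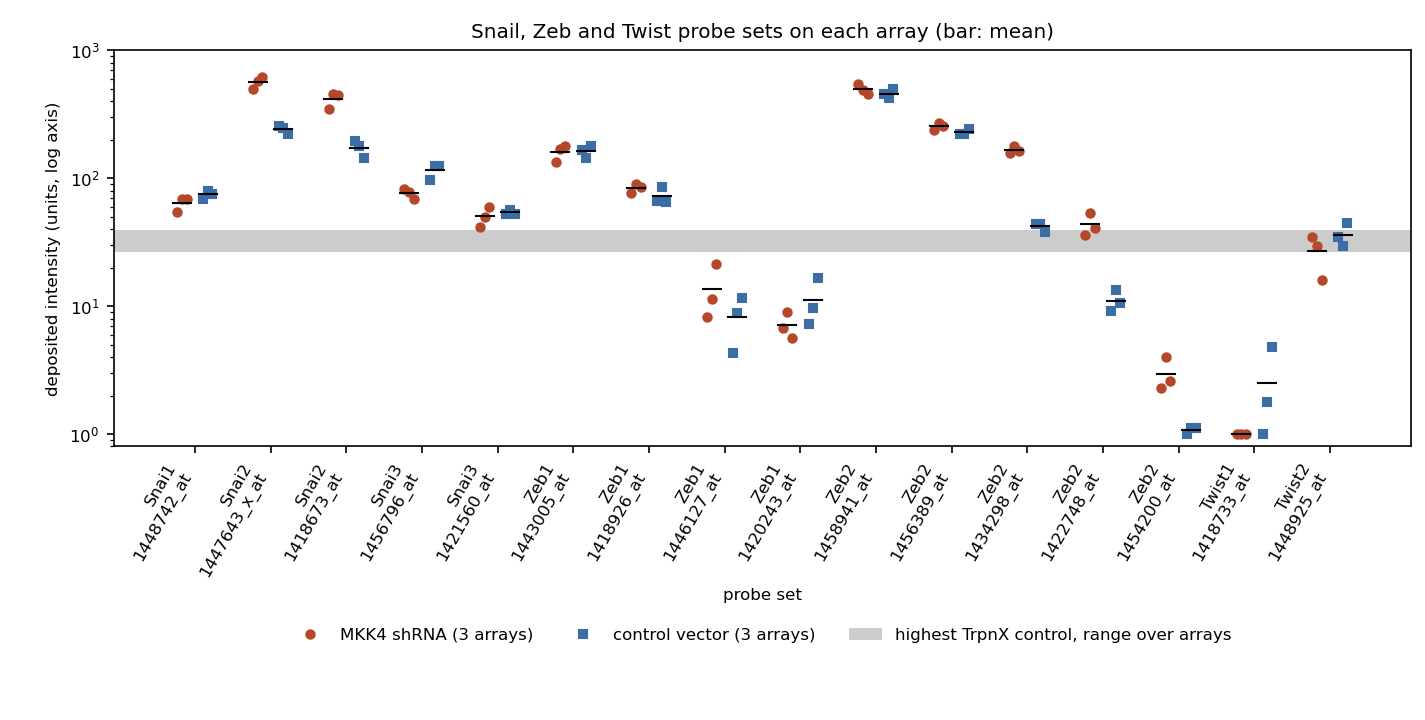
Deposited intensity (units, log axis) of the 16 probe sets of the 7 genes on each array, with MKK4 shRNA (circles) left of control vector (squares), group means as bars and the range of the TrpnX background controls in grey. The Snai2 circles lie above all Snai2 squares, the control vector squares of the Zeb2 probe sets 1434298_at and 1422748_at lie near or under the grey band, and Twist1 lies at the bottom of the scale.

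Snai2, a repressor of E-cadherin known for neural crest and carcinoma cell migration, rose about equally on both probe sets. Probe set 1447643_x_at read 497, 574 and 620 units in MKK4 shRNA cells, against 257, 247 and 222 units in control vector cells. Probe set 1418673_at read 348, 453 and 450 units in MKK4 shRNA cells, against 196, 179 and 144 units in control vector cells. On both, every MKK4 shRNA array was above every control vector array, and the lowest MKK4 shRNA value came from replicate 1.

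The log2 change was 1.15 (SE 0.079, 95% interval 0.96 to 1.33, limma adjusted p = 0.000475) for 1447643_x_at, a 2.21-fold rise, and 1.18 (SE 0.124, 95% interval 0.89 to 1.47, limma adjusted p = 0.00227) for 1418673_at, a 2.27-fold rise. Fold changes are on the scale of log2(intensity + 16), which understates the change of dim probe sets. Their difference was -0.04 (exact two-sided permutation p = 0.7, n = 3 each). The suffix x marks a probe set that can match other transcripts too, and the other Snai2 probe set, which is annotated to the RefSeq messenger RNA, does not carry it. Both passed in all alternatives fitted, 14 and 15 of them.

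Snai1, the founding vertebrate Snail gene and an inducer of EMT in many epithelia, was above background on every array and showed no such rise. Its probe set 1448742_at read 54.0, 68.3 and 68.7 units in MKK4 shRNA cells, against 69.2, 79.7 and 75.3 units in control vector cells. Every MKK4 shRNA value was below every control vector value as deposited, by a margin of under 1 unit, but not after quantile normalization. The log2 change was -0.20 (95% interval -0.48 to 0.09, limma adjusted p = 0.465). The region before the Snai1 start holds 1 E-box of the CACCTG form, the motif that Snail and Zeb proteins bind, and is shown because Snail factors are known to act on this promoter themselves. It lies on the + strand at chr2:167538049-167538094 (RefSeq, GRCm38.p6), with the E-box in capitals:
Snai1: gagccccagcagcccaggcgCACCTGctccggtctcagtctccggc

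Snai3, a Snail relative whose role in EMT is less studied, moved the other way on one probe set. Probe set 1456796_at read 82.5, 77.8 and 68.6 units in MKK4 shRNA cells, against 96.1, 125 and 125 units in control vector cells. The groups did not overlap, and this probe set fell by 0.51 on the log2 scale (SE 0.118, limma adjusted p = 0.0488). The call is marginal: it was lost in 9 of 14 alternatives, among them the values as deposited (limma adjusted p = 0.0756) and leaving out any array other than control replicate 1 (limma adjusted p between 0.0894 and 0.168). Probe set 1421560_at, annotated to the RefSeq messenger RNA, read 41.7, 49.9 and 59.99 units in MKK4 shRNA cells, against 52.8, 56.7 and 52.6 units in control vector cells. There the groups overlapped, with a log2 change of -0.08 (95% interval -0.40 to 0.24, limma adjusted p = 0.832). The difference between the Snai3 probe sets, -0.43, gave an exact two-sided permutation p of 0.2 (n = 3 each).

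Zeb2, also known as SIP1, a repressor with a zinc finger cluster at each end that interacts with Smad proteins, gave different answers on its 5 probe sets. Probe set 1434298_at read 157, 180 and 164 units in MKK4 shRNA cells, against 44.1, 44.2 and 38.0 units in control vector cells. Its control vector values were just above background on their own arrays. The groups were far apart, and the log2 change was 1.65 (SE 0.098, 95% interval 1.42 to 1.87, limma adjusted p = 0.000254), a 3.13-fold rise. Among 45037 probe sets only 31 had a larger positive log2 change.

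Probe set 1422748_at, annotated to the Zeb2 RefSeq messenger RNA, read 36.2, 53.6 and 40.9 units in MKK4 shRNA cells, against 9.11, 13.4 and 10.5 units in control vector cells. It was above background on 2 of 3 MKK4 shRNA arrays and on 0 of 3 control vector arrays, so the control vector level is known only as a bound. The rise passed the test (log2 change 1.13, limma adjusted p = 0.00451) and was at least 1.21-fold when the control vector arrays are set at their background. The size depends on the pseudocount: the log2 change was 1.88 with 1 and 0.52 with 64. Probe set 1454200_at stayed at 2.28, 3.97 and 2.60 units in MKK4 shRNA cells, against 1.00, 1.11 and 1.11 units in control vector cells, all under background, and did not pass.

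The other 2 Zeb2 probe sets were well above background and moved little. Probe set 1458941_at read 548, 487 and 456 units in MKK4 shRNA cells, against 453, 423 and 501 units in control vector cells. Its groups overlapped (log2 change 0.09, 95% interval -0.14 to 0.33, limma adjusted p = 0.718). Probe set 1456389_at read 239, 271 and 257 units in MKK4 shRNA cells, against 223, 222 and 244 units in control vector cells. These groups overlapped too (log2 change 0.13, 95% interval -0.02 to 0.28, limma adjusted p = 0.352). Both are annotated to expressed sequence tags, and so is 1434298_at, which rose. Where each probe set lies along Zeb2 is not given in the sources used here.

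Between probe sets, the log2 change of 1458941_at minus that of 1434298_at was -1.55, and the per-array values of this difference did not overlap between groups. The exact two-sided permutation p was 0.1 (n = 3 each), the smallest that 3 against 3 allows and 0.5 after adjustment over the 5 within-gene pairs. With 1 probe set per gene, chosen as the brightest, Zeb2 therefore did not pass (0.09, limma adjusted p = 0.661). It passed when all its probe sets were averaged (0.63, limma adjusted p = 0.00221) and when the probe set of the RefSeq messenger RNA stood for it (1.13, limma adjusted p = 0.00217). The average includes 1454200_at, which was under background on every array. The RefSeq probe set was above background on no control vector array, and the rule that picks it was chosen after seeing the data.

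The Zeb2 start regions are shown for a motif of AP-1, the dimer of Jun and Fos family proteins that JNK acts on. RefSeq lists 4 Zeb2 starts, and the 250 bases before each were searched on both strands for TGACTCA and TGAGTCA. The most downstream start has 2 matches, at -189 and -132 from it, and the other 3 starts have 0. Of 32851 such windows of all genes 4.46% hold at least 1 match and 0.167% hold 2 or more. By gene, 0.192% of 27025 genes hold 2 or more in 1 window. The stretch, on the - strand at chr2:45110383-45110486 (RefSeq, GRCm38.p6), has both matches in capitals:
Zeb2: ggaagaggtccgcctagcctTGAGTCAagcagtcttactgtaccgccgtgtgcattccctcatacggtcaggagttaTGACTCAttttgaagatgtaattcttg

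Matches of this kind are letters in a window and no evidence of binding. None of the 4 Zeb2 windows, the Twist1 window or the Twist2 window holds CACCTG or CAGGTG.

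Zeb1, the close relative of Zeb2 and a direct repressor of E-cadherin and of the miR-200 genes, was above background on 2 of its 4 probe sets. Probe set 1443005_at read 134, 168 and 178 units in MKK4 shRNA cells, against 165, 143 and 178 units in control vector cells. Probe set 1418926_at, annotated to the RefSeq messenger RNA, read 77.1, 89.4 and 84.9 units in MKK4 shRNA cells, against 66.7, 85.8 and 65.4 units in control vector cells. The groups overlapped on both. The log2 changes were -0.04 (95% interval -0.33 to 0.25, limma adjusted p = 0.910) and 0.17 (95% interval -0.12 to 0.46, limma adjusted p = 0.552). The remaining Zeb1 probe sets, 1446127_at and 1420243_at, stayed between 4.33 and 21.2 units on all arrays, under background.

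Twist1 and Twist2, known for mesoderm and for metastasis of carcinoma cells, were not measurable above background in MKK4 shRNA cells. Twist1 was listed at exactly 1.00 on all 3 MKK4 shRNA arrays, against 1.00, 1.78 and 4.79 units on control vector arrays. Twist2 read 35.0, 29.4 and 15.9 units in MKK4 shRNA cells, against 34.4, 29.7 and 44.4 units in control vector cells, where it was above background on 2 of 3 arrays. Neither passed (limma adjusted p = 0.601 for Twist1 and 0.477 for Twist2), and no fold is given, as both were within background in MKK4 shRNA cells.

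**Figure D2:**
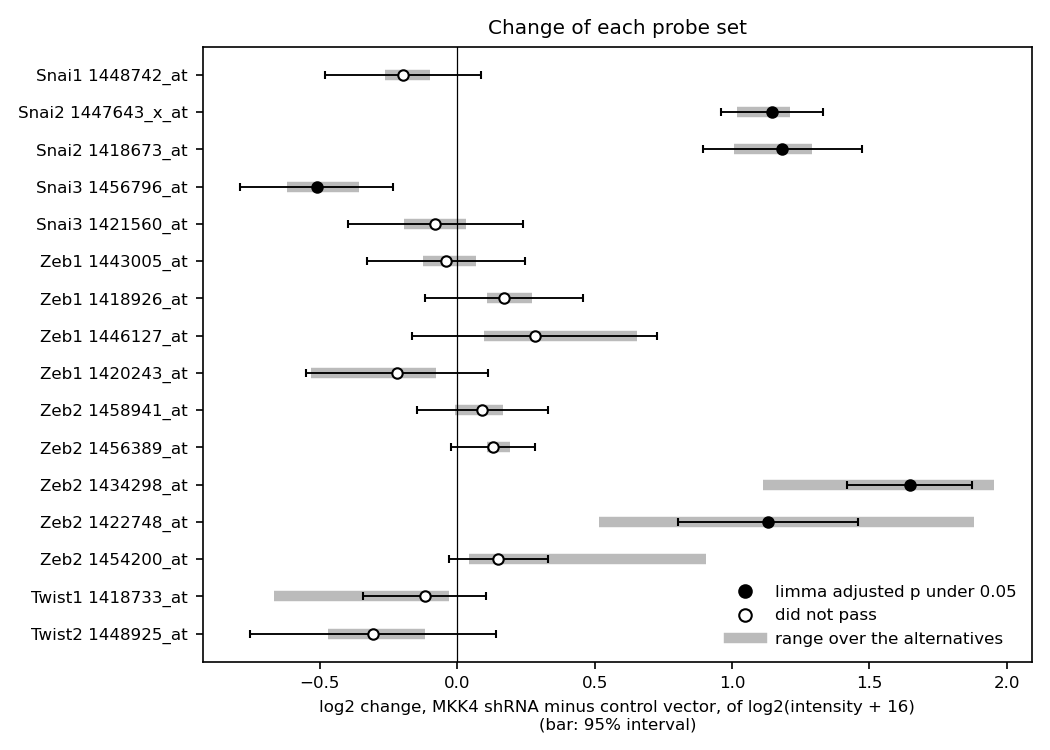
Log2 change (MKK4 shRNA minus control vector) of each of the 16 probe sets with its 95% interval, filled where the limma adjusted p is under 0.05, over a grey bar for the range of the change across the alternatives. Both Snai2 probe sets and the Zeb2 probe sets 1434298_at and 1422748_at lie to the right of 0 with their whole grey bars, while the interval of each unfilled point includes 0.

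The change of Snai2 lay above that of the brightest probe sets of Snai1, Snai3, Zeb1 and Zeb2, but not above that of Zeb2 1434298_at (1.65). Against the 4 brightest, the difference in log2 change ran from 1.05 (against Zeb2 1458941_at) to 1.66 (against Snai3 1456796_at), and the per-array difference did not overlap between groups in any of the 4 pairs. Each gave an exact two-sided permutation p of 0.1 (n = 3 each), also 0.1 after adjustment over the 6 pairs computed, which is the smallest this design allows. The pairs with Twist1 and Twist2, which were above background on no MKK4 shRNA array, are not given. These values share the same Snai2 readings. Among the 10 probe sets above background on every array, MKK4 shRNA replicate 1 gave the lowest of the MKK4 shRNA values in 8, against 45.8% of all probe sets. Without that array the Snai2 changes were 1.21 and 1.29, and that of Zeb2 1434298_at was 1.69.

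With 1 probe set per gene, 2 of the 7 genes passed, Snai2 higher and Snai3 lower, where 11.8% of 18194 genes passed. Snai2 passed in 17 of 17 alternatives and Snai3 in 8 of 16, and Snai3 gave -0.08 (limma adjusted p = 0.793) by its RefSeq probe set. Of genes whose brightest probe set was above background on all arrays, the pattern over the 6 arrays most like that of Snai2 was found in Tcim (Pearson r = 0.998, log2 change 0.81), Dse (0.998, 1.54) and Gtf2e1 (0.998, 0.17). For Snai1 they were Rb1cc1 (0.994), Spef1l (0.988) and Rsad1 (0.983), and for Snai3 Foxd2 (0.996), Ptges (0.995) and Serf2 (0.994). For Zeb1 they were Bud31 (0.994), Wdr70 (0.987) and Gm2102 (0.984), and for the brightest Zeb2 probe set Efnb3 (0.988), Ust (0.986) and Cd74 (0.985). These were the highest r of 13343 genes compared over 6 arrays, so high values follow from the choice and are no evidence of shared regulation. The r also includes the difference between groups. The genes named for Snai1, Zeb1 and Zeb2 did not themselves pass the test (limma adjusted p between 0.292 and 0.935).

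Epithelial genes known as targets of these repressors were more often lower than higher in MKK4 shRNA cells. The test called 19 of the 39 measured lower and 2 higher, and left 18 uncalled. The list's median log2 change was -0.17, against -0.01 over all genes tested, where 5.39% fell and 6.36% rose. All 39 were above background on every array, and of the 13344 genes above background on every array 8.34% rose and 7.16% fell. This list and those below were chosen with earlier results of these data known, so their counts are no independent test. Rab25, a GTPase of apical recycling, read 1580, 1843 and 1692 units in MKK4 shRNA cells, against 2634, 2638 and 2721 units in control vector cells (log2 change -0.65, limma adjusted p = 8.5e-05). Mal, a proteolipid of apical transport (-0.59), Crb3, an apical polarity protein (-0.37), and Epcam, an adhesion molecule (-0.35), were the next in size. These genes showed no overlap between groups.

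Cdh1, the E-cadherin gene and the textbook target of all 3 families, read 6559, 6821 and 6672 units in MKK4 shRNA cells, against 7486, 6959 and 7263 units in control vector cells. The groups did not overlap, but the log2 change was only -0.14 (limma adjusted p = 0.0182) and it passed in 9 of 17 alternatives. The 2 that rose, picked here with their values known, were Krt19 (0.23) and Mal2 (0.19). The number of falls was lowest, at 12, when limma was run with no variance trend. The number of rises was 0 then and 0 without MKK4 shRNA replicate 2 or 3 or control replicate 1 or 2. It was 1 without control replicate 3 and 1 with the replicate block, median centring or chromosome centring. Not every setting is listed.

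The start regions of Rab25 and Crb3 are shown because both genes fell and carry several E-boxes of the CACCTG form (CAGGTG on the other strand, in capitals). The Rab25 stretch lies on the - strand at chr3:88548307-88548363 and the Crb3 stretch on the + strand at chr17:57062063-57062200, both from RefSeq (GRCm38.p6):
Rab25: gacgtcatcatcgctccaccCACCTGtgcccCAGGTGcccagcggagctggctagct
Crb3: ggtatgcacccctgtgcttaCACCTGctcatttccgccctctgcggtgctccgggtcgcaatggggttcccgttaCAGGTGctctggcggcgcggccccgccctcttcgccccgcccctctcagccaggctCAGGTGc

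Of 25 epithelial list genes with a RefSeq start window, 15 hold this E-box in the 250 bases before a start, against 19.4% of all 27025 genes with a window. Among the 14 of them that fell 10 hold it, and among the other 11, 5 do. Rab25 and Crb3 were thus picked for both traits. Mal fell with 0 such E-boxes in its window, and Spint2, with 3, was not called. The list was written from known targets of E-box repressors, so its share is no independent result.

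Mesenchymal genes, which EMT factors raise directly or indirectly, went both ways. The test called 8 of the 37 measured higher and 3 lower and left 26 uncalled, with a median log2 change of 0.01. The 26 include all 10 fibroblast markers given above. Of the 37 genes 25 were above background on every array and 7 on none. Over all genes tested 6.36% were called higher and 5.39% lower. Of genes above background on every array, 8.34% were called higher and 7.16% lower. The count of falls is thus near the background. Vim, the gene of vimentin, read 8011, 8089 and 7923 units in MKK4 shRNA cells, against 5669, 5216 and 5708 units in control vector cells (log2 change 0.51, limma adjusted p = 0.00022). Bgn, the proteoglycan biglycan, had the largest rise among called genes (2.46), followed by Tnc, tenascin C (0.75), and Ncam1, a neural adhesion molecule (0.55). Tnc passed in 9 and Ncam1 in 10 of 16 alternatives, and Ncam1 gave 0.07 when probe sets with the suffixes a, s or x were dropped. Loxl1 (-0.51), Tpm2 (-0.51) and Mmp14 (-0.20) fell and are picked here with their values known. Cdh2, the N-cadherin gene, was above background on 1 of 3 MKK4 shRNA arrays and 0 of 3 control vector arrays and was not called (limma adjusted p = 0.0744), although its groups did not overlap. The count of rises was 5 without MKK4 shRNA replicate 2, 5 without control replicate 3 and 5 with no variance trend. The count of falls was 1 without MKK4 shRNA replicate 2, control replicate 1 or control replicate 3, and 1 with the replicate block.

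**Figure D3:**
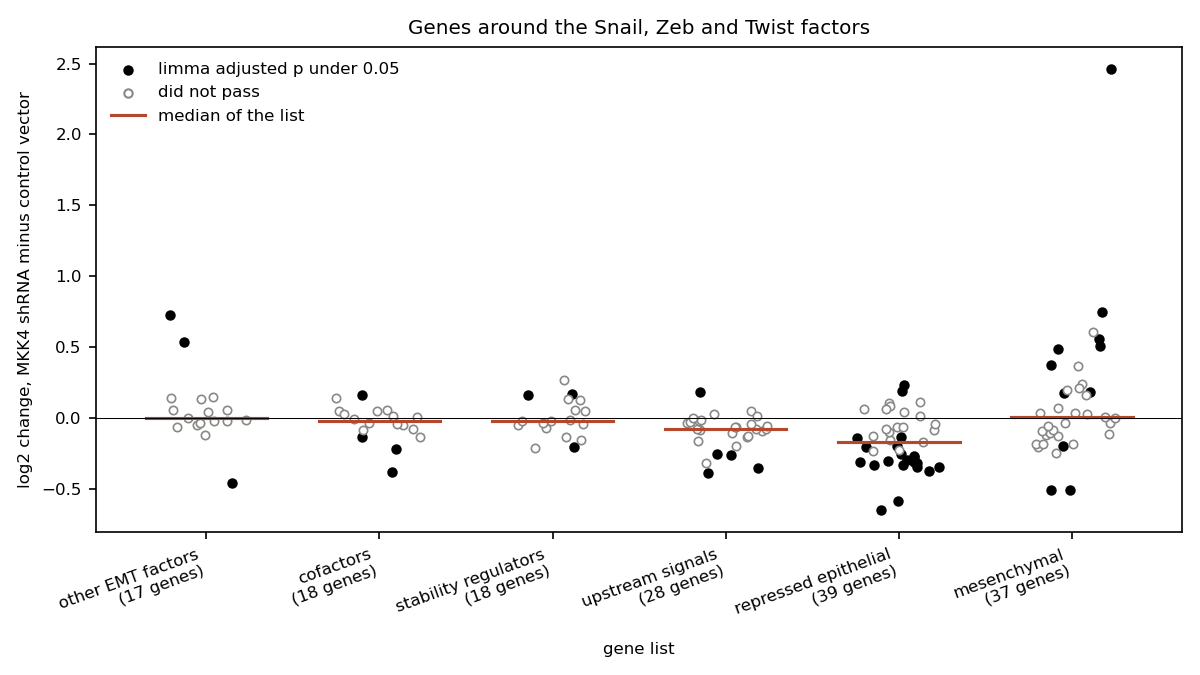
Log2 change (MKK4 shRNA minus control vector) of each measured gene in 6 lists around the Snail, Zeb and Twist factors, filled where the limma adjusted p is under 0.05, with the median of each list as a line. Most filled points of the epithelial list lie below 0, and the mesenchymal list spreads to both sides with Bgn at 2.46.

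Genes around the repressors were called at rates between 16.7% and 22.2%, against 11.8% of all genes. Of these 81 genes 73 were above background on all arrays, and 15.5% of all such genes were called, so the rates are near the background. Of 17 other EMT transcription factor genes 2 rose and 1 fell. Sox9 averaged 175 ± 9.32 units in MKK4 shRNA cells and 98.8 ± 0.666 units in control vector cells (SD, n = 3 each), a log2 change of 0.72 (limma adjusted p = 0.00113). The forkhead gene Foxq1 rose by 0.54, and the homeobox gene Prrx2 fell by 0.46. Of 18 repressor cofactors 3 fell, Ezh2 of the Polycomb complex (-0.38) and the histone deacetylase and demethylase genes Hdac1 (-0.22) and Kdm1a (-0.13), and 1, the LIM gene Ajuba (0.16), rose. Kdm1a passed in 5 of 17 and Ajuba in 7 of 16 alternatives. The count of cofactors that fell was 1 without MKK4 shRNA replicate 2.

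Of 18 regulators of repressor protein stability 2 rose, the ubiquitin ligase gene Fbxw11 (0.16) and the kinase gene Lats2 (0.17), and 1, the casein kinase gene Csnk2a1 (-0.20), fell. Of 28 genes of upstream signals 4 fell and 1 rose, with a median of -0.08. The 4 were Jun (-0.39), the TGF-beta receptor gene Tgfbr1 (-0.35), the early growth response gene Egr1 (-0.26) and the Wnt effector gene Tcf7l2 (-0.26). The 1 that rose, picked here with its value known, was the hypoxia factor gene Hif1a (0.19). The count of upstream genes that fell was 2 without MKK4 shRNA replicate 2, control replicate 2 or control replicate 3. Jun passed in all 17 alternatives, Tgfbr1 in 16, Egr1 in 11, Tcf7l2 in 9, Csnk2a1 in 16, Fbxw11 in 15 and Lats2 in 7.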

How the data were processed

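RNA from 3 MKK4 shRNA and 3 control vector cultures was labelled with biotin and hybridised to Affymetrix arrays, per the labels' protocols. The authors deposited 1 intensity per probe set and array, on a linear scale. How these were summarised, background-corrected and normalized is not given in the sources used here. Array medians were 92.0 to 95.8 units. After adding a pseudocount of 16 and taking log2, limma 3.58.1 (R 4.3.3) quantile-normalized the arrays. The 64 control probe sets were not tested.

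Limma (lmFit, eBayes with a trend, Benjamini-Hochberg at 0.05) was fitted to 45037 probe sets and to 18194 genes by their brightest probe set; differences in change were tested by exact permutation. The test was run on simulated data with known changes and independent errors for each probe set, which does not cover effects that a whole array shares. Intervals are 95% intervals of limma. Members and gene lists were chosen with earlier results of these data known. Named were all member probe sets, Map2k4, Cdh1, Vim, up to 4 called genes per list by size, and the 3 genes most like each member. Probe genes come from GEO's platform annotation, chromosomes and start windows from RefSeq (GRCm38.p6). Snai2, Snai3, Zeb1 and Cdh1 start windows were not used here.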

Additional observations from a re-analysis of the deposited data

How the results depend on the processing

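Alternatives were the deposited values with no further normalization, median centring, pseudocounts of 1 and 64, dropping dimmer probe sets, eBayes with no trend, the replicate block, chromosome centring, leaving out each array in turn, and dropping probe sets with the suffixes a, s or x. For genes, the mean of probe sets and, chosen after seeing the data, the RefSeq probe set were added. The rises of both Snai2 probe sets and of Zeb2 1434298_at and 1422748_at kept their direction and passed in every alternative that tested them. Called probe sets numbered 2868, against 1842 as deposited, 941 with no trend, 1139 with the replicate block, 1701 without the suffixed ones and 1183 to 1867 with an array left out. Called genes numbered 2139, against 1127 with no trend, 1206 with the replicate block and 1159 to 1662 with an array left out. Same-numbered arrays did not deviate together (correlations -0.029, -0.007 and -0.098), so the numbers were not taken to pair arrays.

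Of member probe sets, 2 of the 5 left passed without the dimmer ones and 3 of the 15 left without the suffixed ones, and 4 to 5 passed with an array left out. Member genes passing were 1 of the 2 left without the dimmer genes, 1 with the replicate block and 1 to 2 with an array left out. Changes that missed the test could turn. With an array left out, Snai3 1421560_at ran from -0.19 to 0.031, Zeb1 1443005_at from -0.13 to 0.069 and Zeb2 1458941_at from -0.0080 to 0.17, by gene as well for Zeb1 and Zeb2. By gene, Zeb1 gave 0.048 as a mean and 0.17 by its RefSeq probe set. The difference between the Snai2 probe sets was 0.0084 with a pseudocount of 64 and -0.087 to 0.021 with an array left out, and that between Zeb2 1458941_at and 1456389_at ran from -0.17 to 0.033. Causes were not tested. Calls in the small lists moved too: with median centring 1 repressor cofactor fell, and with no trend 2 genes of upstream signals fell.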
